A study of Mus musculus with 6 samples.

Results

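The genes described here are 32 genes of the endoplasmic reticulum (ER) stress and integrated stress responses, out of 22274 genes in the deposited table. They were taken by gene symbol from a list drawn up for this purpose, each symbol matched 1 row, and all 32 had enough counts to be tested. They were split by role into 16 genes of ER chaperoning, folding and degradation and 16 Atf4-type genes. The latter are the factors Atf4 and Atf5, 4 regulators, 7 enzymes of amino acid, serine and one-carbon synthesis and 3 transporter genes. Cells from mouse kidney, labelled primary renal fibroblasts and grown in serum, received a scrambled siRNA (genotype label WT) or siRNA against Prune2 (labelled as a knockdown). Both groups were exposed to TGF-β (5 ng/ml, 48 h), so the control also carries an siRNA and the cytokine. RNA-seq was deposited for 3 control libraries and 3 Prune2 siRNA libraries. The labels do not say whether the 3 libraries of a group came from separate animals or cultures, and a p-value here reflects variation among these 6 libraries alone, which may be technical. The comparison asked how depletion of Prune2 changes transcripts in TGF-β-treated cells, and cells without TGF-β are outside it.

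Unfolded protein in the ER lumen is sensed by Ire1, Perk and Atf6. Ire1 splices Xbp1 mRNA, and spliced Xbp1 and cleaved Atf6 switch on chaperones, disulfide isomerases and the machinery that exports misfolded protein for degradation. Perk is also a kinase of translation factor eIF2α, as are Gcn2, Pkr and Hri, and phosphorylation of eIF2α favours translation of Atf4, which raises genes for amino acid import, asparagine and serine synthesis and mitochondrial one-carbon metabolism. Fibroblasts that make collagen in response to TGF-β draw on both arms, since secreted matrix is folded in the ER and collagen is rich in glycine made from serine. Gene-level counts do not separate spliced from unspliced Xbp1, and Atf4 is controlled largely at translation, so neither factor's activity is measured by its transcript level.

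Total counts ran from 20075265 to 23234797 per library. Levels are given as CPM, counts scaled to each library's size, and log2 fold changes are for Prune2 siRNA over control siRNA. Tests used edgeR (quasi-likelihood), adjusted by Benjamini-Hochberg over the 13248 tested genes, and a gene is called, or said to have risen or fallen, at an adjusted p under 0.05. Prune2 itself stood at 6.49, 7.85 and 6.52 CPM in control replicates 1, 2 and 3 and at 3.78, 3.19 and 4.44 CPM in Prune2 siRNA replicates 1, 2 and 3, without overlap (log2 fold change -0.87, adjusted p = 0.000214). Its depletion was partial, and limma on FPKM did not call it (adjusted p up to 0.197). Markers of the labelled cell type were uneven per transcript length in the control libraries. Of the 12 fibroblast markers Vim was highest, at 260.3 ± 13.9 FPKM, Col1a1 and Col1a2 were at 39.7 ± 0.605 and 16.0 ± 1.33 FPKM, and Pdgfra, Thy1, Dcn, Fap and Lum were between 0.0167 and 0.853 FPKM (SD, n = 3). Of the 13 tubular epithelial markers, the general epithelial genes Krt8, Krt18, Epcam, Cdh1 and Krt19 were between 106 and 1232 FPKM, Cdh16 and Pax8 at 119.7 and 40.8 FPKM, and the segment markers Lrp2, Umod, Slc12a3 and Slc12a1 between 0.0867 and 2.68 FPKM. The cells are therefore referred to by their label only. All 20 tested leukocyte markers of 22 listed were lower with Prune2 siRNA, and their summed level ran from 224 to 278 CPM in control and from 47.5 to 53.5 CPM in Prune2 siRNA libraries, with Cd3e at 0 throughout. Of the 10 tested endothelial markers 6 fell (summed level 136 to 147 CPM against 102 to 105 CPM, none at 0), and 4 of 9 tested fibroblast markers fell (929 to 969 against 705 to 750.0 CPM, none at 0). Of 10 tested tubular epithelial markers 3 rose and 2 fell (5724 to 5883 against 5281 to 5752 CPM, Aqp2 and Slc34a1 at 0). Over all tested genes 4.46% were called higher and 5.83% lower. In bulk RNA, fewer cells of a type and less RNA per cell cannot be told apart. The part of these markers in the values below was not tested.

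Promoters of 4 of the genes are shown because they hold the DNA elements for which the 2 arms are known. The ER stress response element, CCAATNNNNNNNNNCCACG, is the site through which Atf6 acts together with the factor NF-Y, and the amino acid response element, with the core TGATGNAA, is the type of site that Atf4 binds. Hspa5, Hsp90b1 and Dnajc3 are the ER genes that fell with Prune2 siRNA, and Asns, asparagine synthetase, is the textbook Atf4 target. Each sequence runs 5′ to 3′ on the gene's strand, from 250 bases before to 50 bases after the RefSeq start site (GRCm38.p6), with the matched element in capitals. The windows are chr2:34771840-34772139 (plus strand) for Hspa5, chr10:86705395-86705694 (minus) for Hsp90b1, chr14:118937682-118937981 (plus) for Dnajc3 and chr6:7693160-7693459 (minus) for Asns.
Hspa5: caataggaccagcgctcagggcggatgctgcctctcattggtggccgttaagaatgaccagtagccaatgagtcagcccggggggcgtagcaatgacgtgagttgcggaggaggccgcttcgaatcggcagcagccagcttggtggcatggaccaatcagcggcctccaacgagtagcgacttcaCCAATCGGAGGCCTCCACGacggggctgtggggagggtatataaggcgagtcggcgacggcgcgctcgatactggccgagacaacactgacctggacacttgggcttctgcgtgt
Hsp90b1: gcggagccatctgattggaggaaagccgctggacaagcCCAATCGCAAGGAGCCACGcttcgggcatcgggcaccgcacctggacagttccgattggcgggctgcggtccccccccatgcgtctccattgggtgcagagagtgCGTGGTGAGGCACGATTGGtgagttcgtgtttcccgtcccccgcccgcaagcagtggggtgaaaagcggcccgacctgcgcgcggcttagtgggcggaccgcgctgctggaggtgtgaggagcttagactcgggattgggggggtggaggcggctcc
Dnajc3: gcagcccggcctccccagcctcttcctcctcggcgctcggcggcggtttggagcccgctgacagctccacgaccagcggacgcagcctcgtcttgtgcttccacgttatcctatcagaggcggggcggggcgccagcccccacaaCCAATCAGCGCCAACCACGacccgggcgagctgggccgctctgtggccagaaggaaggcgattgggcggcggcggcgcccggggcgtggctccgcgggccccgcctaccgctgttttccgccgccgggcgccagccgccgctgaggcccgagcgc
Asns: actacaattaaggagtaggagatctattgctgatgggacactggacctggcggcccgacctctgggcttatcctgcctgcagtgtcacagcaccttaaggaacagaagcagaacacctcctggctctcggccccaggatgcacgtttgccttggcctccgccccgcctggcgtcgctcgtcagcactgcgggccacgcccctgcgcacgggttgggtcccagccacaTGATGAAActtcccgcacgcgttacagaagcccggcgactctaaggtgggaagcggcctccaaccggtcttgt

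In the Hspa5 window the element begins 65 bases before the start site, and in the Dnajc3 window 105 bases before it. Hsp90b1 holds 2 copies, a sense copy beginning 212 bases and an antisense copy beginning 107 bases before the start site. The Asns core begins 23 bases before the start site. Windows were found for 29 of the 32 genes, and both strands were searched. The full ER stress response element was present for 6 of the 14 ER genes with a window (Hspa5, Hsp90b1, Dnajc3, Calr, Creld2 and Pdia6) and for 0 of the 15 Atf4-type genes with one, against 0.119% of all 32851 windows of the same length. A second form, ATTGG and CCACG with 1 free base between them, was found for Dnajb11 and Herpud1 and in 0.0365% of windows. The amino acid response core was found for Trib3, Chac1, Asns, Pck2 and Slc7a11, for Herpud1 among the ER genes, and in 3.97% of windows. No match of one element overlapped a match of another in these genes. A match describes the letters in the window and not a bound site, and a missing match says nothing about sites elsewhere.

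Of the 16 genes of ER chaperoning, folding and degradation 3 fell with Prune2 siRNA, 0 rose and 13 were not called, and the 3 were the abundant lumenal chaperones Hspa5 and Hsp90b1 and the co-chaperone Dnajc3. Of the 16, 0 had an unadjusted p under 0.05 upward, and DESeq2 and limma-voom also called 0 higher. Of all tested genes, 5.83% were called lower and 10.3% called in either direction. The log2 fold changes of the 16 genes ran from -0.19 to -0.04, all below 0, with a median of -0.07, where 48.3% of all tested genes were below 0 and their median was 0.0042. Summed over the 16 genes, the level was 4163, 4193 and 3924 CPM in control replicates 1, 2 and 3, and 3888, 3771 and 3734 CPM in Prune2 siRNA replicates 1, 2 and 3. The groups did not overlap in this sum, but control replicate 3 lay close to the highest Prune2 siRNA library, and the mean of the Prune2 siRNA libraries was 92.8% of the control mean. Hspa5, Calr and Hsp90b1, at control means of 888, 854 and 765 CPM, made up most of the mean control sum of 4093 CPM. The sum of the 10 chaperones and co-chaperones was 91.7% of control. For Xbp1, the 2 disulfide isomerases and the 3 degradation genes it was 95.3%, 96.0% and 96.6%.

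**Figure D1:**
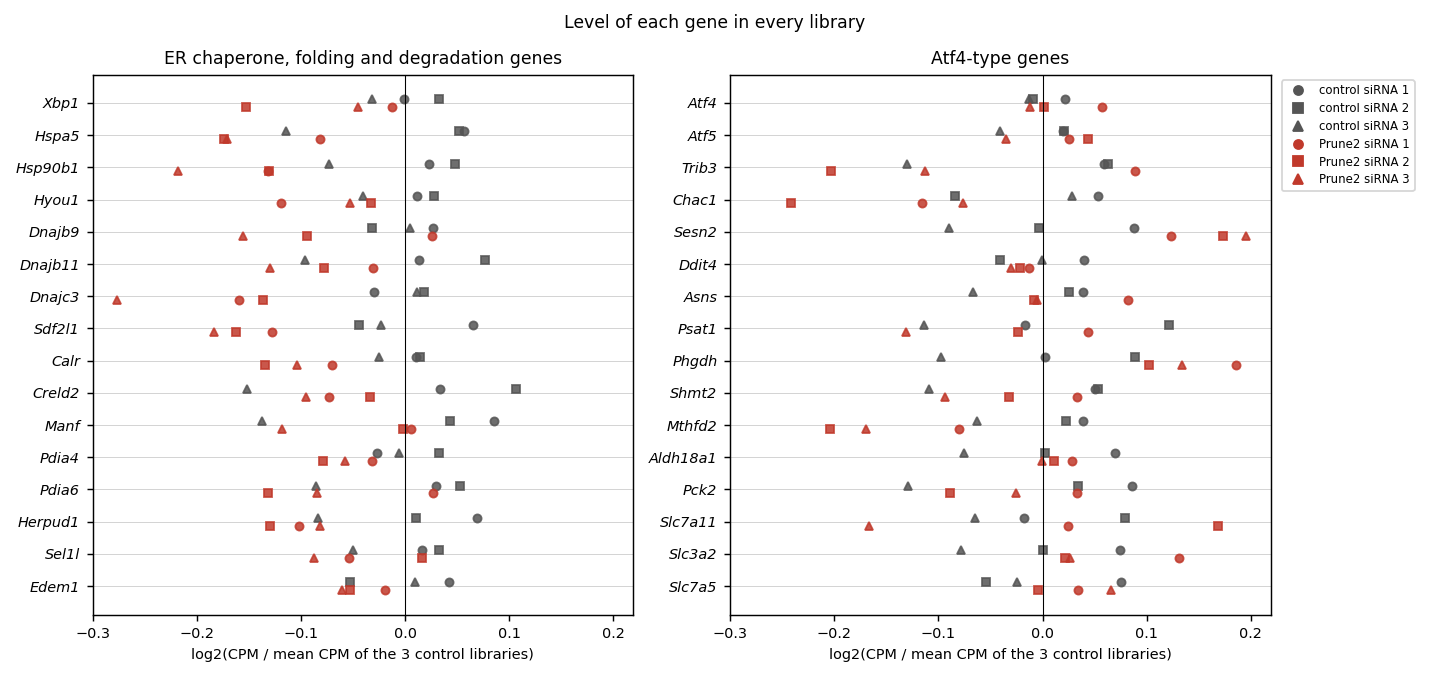
Level of each gene in every library, as log2 of its CPM over the mean CPM of the 3 control libraries (horizontal axis, log2 units), with control libraries in grey, Prune2 siRNA libraries in red and the marker shape giving the replicate number. In the left panel Prune2 siRNA points lie mostly left of 0, and in both panels control replicate 3 is often the lowest control point.

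Hspa5 encodes BiP, the Hsp70 chaperone of the ER lumen and the repressor of the stress sensors. In control libraries it stood at 924, 920.3 and 821 CPM, and at 839, 787 and 789 CPM with Prune2 siRNA. The groups overlapped, because control replicate 3 was below Prune2 siRNA replicate 1. Hspa5 fell by 0.14 on the log2 scale (SE 0.04, adjusted p = 0.0280), a change of -9.35% with a 95% interval of -14.6% to -3.76%. The call was lost when any of 4 libraries was left out, namely control replicate 1 (adjusted p = 0.158) or 2 (0.175), or Prune2 siRNA replicate 2 (0.105) or 3 (0.133), in a range of 0.000579 to 0.176 over 16 alternatives.

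Hsp90b1 encodes Grp94, the ER form of Hsp90, which folds integrins and Toll-like receptors. Its level was 777, 790.3 and 727 CPM in control libraries and 698, 699 and 657 CPM with Prune2 siRNA, so each Prune2 siRNA library was below each control library. Its log2 fold change was -0.16 (SE 0.04, adjusted p = 0.00547). Without control replicate 2 the adjusted p was 0.0541 and without Prune2 siRNA replicate 3 it was 0.0608, in a range of 0.000196 to 0.117 over 16 alternatives. Hsp90b1 (ENSMUSG00000020048) lies on chromosome 10 from 86690209 to 86705509, minus strand, and Hspa5 (ENSMUSG00000026864) on chromosome 2 from 34771970 to 34777547, plus strand, in GENCODE M21 on GRCm38.

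Dnajc3 encodes p58IPK, an ER J-domain co-chaperone of BiP. It stood at 99.9, 103 and 103 CPM in control libraries and at 91.3, 92.8 and 84.2 CPM with Prune2 siRNA. The control libraries lay close together, all above the Prune2 siRNA libraries, and Prune2 siRNA replicate 3 was the lowest. Its log2 fold change of -0.19 (SE 0.04, adjusted p = 0.00389) was the lowest of the 32 genes. Leaving out Prune2 siRNA replicate 3 gave -0.15 and an adjusted p of 0.0538, while the call held without any 1 of the other 5 libraries (range 0.000645 to 0.101 over 16 alternatives). Dnajc3 (ENSMUSG00000022136) lies on chromosome 14 from 118937976 to 118981697, plus strand.

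Calr encodes calreticulin, the calcium-binding lectin that holds newly made glycoproteins in the ER. It was at 861, 863 and 839.6 CPM in control libraries and 814, 779 and 795 CPM with Prune2 siRNA, without overlap. Its log2 fold change was -0.10 (SE 0.03, adjusted p = 0.0569), short of a call. Calr was called in 6 of 16 alternatives, with DESeq2 (adjusted p = 0.0134) and limma-voom (0.031) among them, over a range of 0.0134 to 0.199. In the authors' deposited table its adjusted p was 0.0123.

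Sdf2l1, a partner of the BiP co-chaperones, and Pdia4, a disulfide isomerase, also had groups that did not overlap without being called. Sdf2l1 was the least abundant ER gene, at 7.72, 7.15 and 7.26 CPM in control libraries and 6.75, 6.59 and 6.49 CPM with Prune2 siRNA. Its log2 fold change of -0.16 had an SE of 0.12 (adjusted p = 0.522), so its interval of -24.3% to 6.12% was wider than that of the abundant chaperones. Pdia4 was at 234, 244 and 238 CPM against 233.5, 226 and 229 CPM, with control replicate 1 just above Prune2 siRNA replicate 1 (log2 fold change -0.06, adjusted p = 0.429). With Hsp90b1, Dnajc3 and Calr, 5 of the 16 ER genes had all Prune2 siRNA libraries below all control libraries in CPM and 0 had them all above, where 12.4% of all tested genes were separated downward and 11.9% upward.

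The remaining ER genes lay between -0.10 and -0.04 on the log2 scale with overlapping groups. Among chaperones and secreted or retained folding factors these were Hyou1 (Grp170, the nucleotide exchange factor of BiP), Dnajb9 and Dnajb11 (J-domain co-chaperones), Creld2 and Manf (ER proteins released under stress), with log2 fold changes of -0.07, -0.07, -0.08, -0.06 and -0.04. Pdia6, a disulfide isomerase that also acts on Ire1, was at -0.06. The 3 degradation genes were Herpud1 at -0.10, Sel1l at -0.04 and Edem1 at -0.04. Herpud1 and Sel1l belong to the Hrd1 ubiquitin ligase complex and Edem1 hands misfolded glycoproteins to it. Herpud1 stood at 44.7, 42.9 and 40.2 CPM in control and 39.7, 39.0 and 40.3 CPM in Prune2 siRNA libraries, with control replicate 3 level with Prune2 siRNA replicate 3 (adjusted p = 0.321).

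Xbp1, the transcription factor of the Ire1 arm, was not called. Its level was 114, 117 and 112 CPM in control libraries and 113, 103 and 111 CPM with Prune2 siRNA, with the groups overlapping. The log2 fold change was -0.07 (SE 0.04, adjusted p = 0.41), and the 95% interval of the difference was -10.3% to 1.30%. Sel1l and Edem1 had intervals of similar width, -8.03% to 2.80% and -8.46% to 2.68%.

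**Figure D2:**
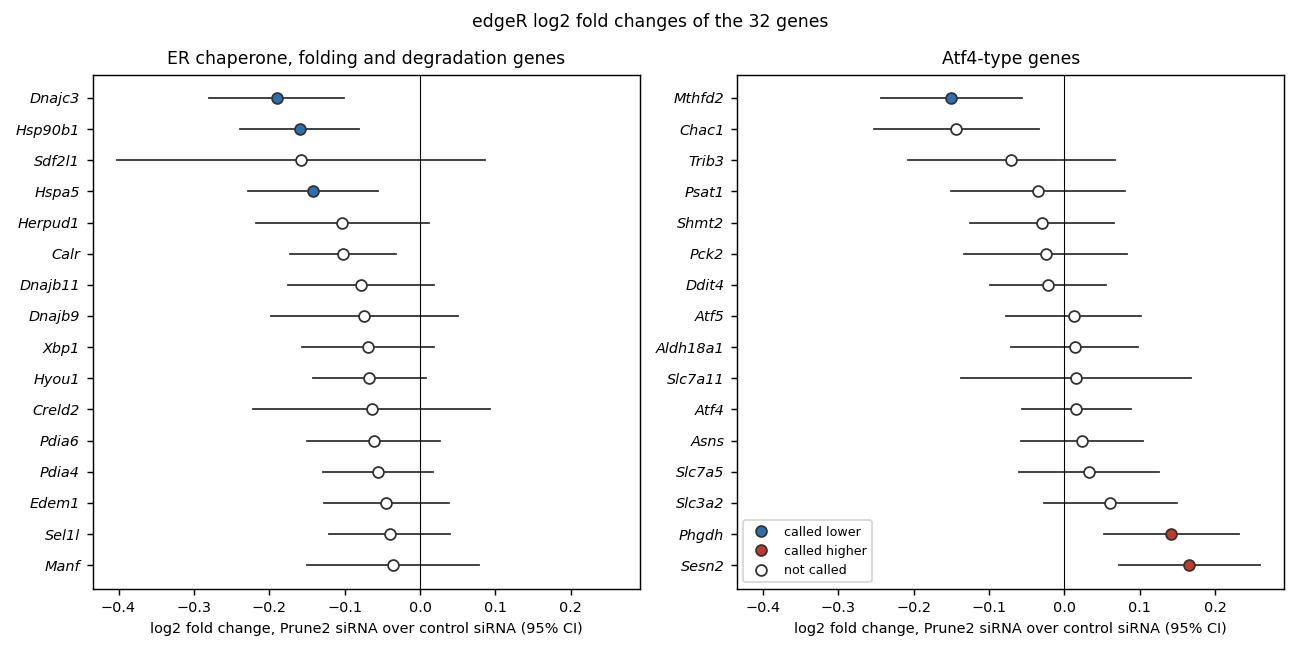
edgeR log2 fold changes of the 32 genes, Prune2 siRNA over control siRNA (horizontal axis), with 95% confidence intervals as lines and filled points for called genes. The 16 ER genes at left all lie below 0, from -0.19 to -0.04, and the Atf4-type genes at right lie on both sides of 0, from -0.15 to 0.17.

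The ER genes with the full stress response element included the 3 that fell. Over the 6 genes with the element, log2 fold changes ran from -0.19 to -0.06 with a median of -0.12, and over the 8 with a window and no such element from -0.16 to -0.04 with a median of -0.07. The ranges overlap, and the genes with the element include the 3 most abundant chaperones. The 12 other tested genes in the table with the element had a median log2 fold change of -0.02, and 7 of them were below 0.

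The Atf4-type genes had no common direction. Of 16 genes 2 rose, 1 fell and 13 were not called, where 4.46% of all tested genes were called higher and 5.83% lower. Their median log2 fold change was 0.01, with 9 genes above 0 and 7 below, and the median turned to -0.02 without control replicate 3 and -0.0067 without Prune2 siRNA replicate 1. The summed level was 1861, 1825 and 1735 CPM in control replicates 1, 2 and 3 and 1877, 1799 and 1797 CPM in Prune2 siRNA replicates 1, 2 and 3. These groups overlapped, with control replicate 3 lowest and Prune2 siRNA replicate 1 highest.

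Atf4, the factor at the centre of the integrated stress response, differed by less than the spread between libraries. It stood at 306.5, 299.9 and 299 CPM in control libraries and at 314, 302 and 299.5 CPM with Prune2 siRNA. The log2 fold change was 0.02 (SE 0.04, adjusted p = 0.871) with a 95% interval of -3.83% to 6.31%. Atf5, a related factor that is translated under the same control, stood at 81.6 ± 1.99 and 82.2 ± 2.35 CPM (SD, n = 3; log2 fold change 0.01, interval -5.23% to 7.31%).

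Among the regulators Sesn2 rose. Sesn2 encodes sestrin 2, a stress-induced leucine sensor that restrains mTORC1. It was at 99.1, 93.0 and 87.6 CPM in control libraries and 102, 105 and 107 CPM with Prune2 siRNA, so every Prune2 siRNA library was above every control library. The log2 fold change was 0.17 (SE 0.05, adjusted p = 0.0162), a rise of 12.2% (95% interval 5.13% to 19.7%). Its call ended when control replicate 2 (adjusted p = 0.0700), control replicate 3 (0.146, at a log2 fold change of 0.12) or Prune2 siRNA replicate 3 (0.0927) was left out, in a range of 0.00357 to 0.146 over 16 alternatives. Sesn2 (ENSMUSG00000028893) lies on chromosome 4 from 132492032 to 132510501, minus strand, and is also a p53 target.

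The other 3 regulators were not called. Chac1, which degrades glutathione, was at 65.9, 59.9 and 64.7 CPM in control libraries and 58.6, 53.7 and 60.2 CPM with Prune2 siRNA, and only control replicate 2 lay below a Prune2 siRNA library, replicate 3 (log2 fold change -0.14, SE 0.05, adjusted p = 0.0951). Trib3, a pseudokinase that feeds back on Atf4, was at 49.0 ± 3.67 and 46.7 ± 4.92 CPM, and Ddit4, an inhibitor of mTORC1, at 148 ± 4.13 and 145 ± 0.852 CPM (SD, n = 3). Ddit3, the death-associated factor CHOP that Atf4 induces, is not among the 32 genes and was added after its values were seen. Ddit3 averaged 15.6 ± 2.91 CPM in control and 14.5 ± 0.499 CPM in Prune2 siRNA libraries (SD, n = 3), with a log2 fold change of -0.10 (SE 0.10, adjusted p = 0.660).

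Of the 7 enzymes of amino acid, serine and one-carbon synthesis, Phgdh rose and Mthfd2 fell. Phgdh, which catalyses the first step of serine synthesis, was at 138, 147 and 129 CPM in control libraries and 157, 148 and 152 CPM with Prune2 siRNA, with control replicate 2 just below Prune2 siRNA replicate 2. Its log2 fold change was 0.14 (SE 0.04, adjusted p = 0.0355). It was called in 7 of 16 alternatives (adjusted p from 0.00858 to 0.274), the fewest of the 6 called genes. Upper-quartile scaling gave an adjusted p of 0.0530 and DESeq2 one of 0.0587. Leaving out control replicate 1 gave 0.102, control replicate 3 gave 0.264 at a log2 fold change of 0.09, and Prune2 siRNA replicates 1 and 3 gave 0.147 and 0.0963. Phgdh (ENSMUSG00000053398) lies on chromosome 3 from 98313170 to 98339990, minus strand.

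Mthfd2, the mitochondrial folate enzyme that oxidises one-carbon units, moved the opposite way. It was at 94.1, 93.0 and 87.7 CPM in control libraries and 86.6, 79.5 and 81.5 CPM with Prune2 siRNA, without overlap, although control replicate 3 and Prune2 siRNA replicate 1 lay close together. The log2 fold change was -0.15 (SE 0.05, adjusted p = 0.0316). DESeq2 did not call it (0.0562), nor did fits that left out control replicate 1 (adjusted p = 0.130) or 2 (0.124) or Prune2 siRNA replicate 2 (0.136) or 3 (0.122), in a range of 0.0124 to 0.176 over 16 alternatives. Mthfd2 (ENSMUSG00000005667) lies on chromosome 6 from 83305691 to 83325908, minus strand. Phgdh and Mthfd2 thus had opposite calls within 1 pathway. Of the enzymes that stand between them, Psat1 (the serine synthesis aminotransferase) and Shmt2 (which splits serine to glycine in mitochondria) were at -0.03 and -0.03 on the log2 scale and were not called. Psph, the phosphatase that completes serine synthesis and is not among the 32 genes, was at 0.12 (SE 0.09, adjusted p = 0.544).

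Asns stood at 198, 196 and 184 CPM in control libraries and at 204, 191 and 192 CPM with Prune2 siRNA. The groups overlapped, and the log2 fold change of 0.02 (SE 0.04, adjusted p = 0.821) had a 95% interval of -3.90% to 7.53%. Aldh18a1, the first enzyme of proline synthesis from glutamate, was at 131 ± 6.59 and 132 ± 1.34 CPM, and Pck2, the mitochondrial phosphoenolpyruvate carboxykinase, at 73.2 ± 5.60 and 71.9 ± 3.04 CPM (SD, n = 3). The 3 transporter genes were not called either. Slc7a5 and Slc3a2, the light and heavy chains of a leucine transporter, were at 0.03 and 0.06 on the log2 scale, and Slc7a11, the cystine transporter chain, at 0.02. For Slc7a11 the Prune2 siRNA libraries, at 29.2, 32.3 and 25.6 CPM, spanned the whole control range of 27.5 to 30.3 CPM.

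**Figure D3:**
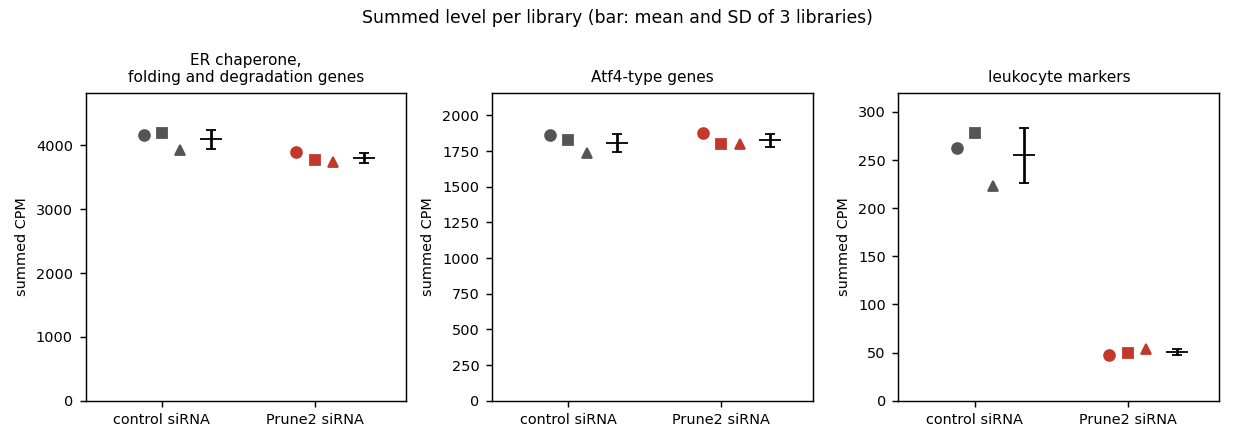
Summed CPM per library (vertical axis, from 0) of the 16 ER genes, the 16 Atf4-type genes and the 22 leukocyte markers, with 1 point per library and the mean and SD of each group of 3 as a bar. The ER sums are 3924 to 4193 CPM in control and 3734 to 3888 CPM in Prune2 siRNA libraries, the Atf4-type sums overlap, and the leukocyte sums fall from 224 to 278 CPM to 47.5 to 53.5 CPM.

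In both groups of genes control replicate 3 stood apart from the other control libraries. It was the lowest of the 3 control libraries for 11 of the 16 ER genes and for 13 of the 16 Atf4-type genes, and the highest for 0 of the 32. Over all 13248 tested genes it was the lowest control library for 4668 and the highest for 4400. It also had the lowest summed leukocyte markers of the control libraries, at 224 CPM against 263 and 278 CPM. When it was left out, the median of the ER genes was -0.11 in place of -0.07, and the called genes were Hspa5, Hsp90b1, Dnajc3 and Mthfd2. Among the Prune2 siRNA libraries replicate 1 stood out upward. It was the highest for 10 of the 16 ER genes and 11 of the 16 Atf4-type genes, and the lowest for 1 of each. Over all tested genes it was the highest Prune2 siRNA library for 4496 and the lowest for 4430.

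A fit with a library left out has fewer samples, and none of the 6 calls held without Prune2 siRNA replicate 3. Without it edgeR called 0 of the 32 genes, with 8 at an unadjusted p under 0.05 and an adjusted p of 0.0538 for Dnajc3 and 0.0608 for Hsp90b1, while over all genes 997 of 13386 tested genes (7.45%) were called against 1364 of 13248 with all libraries. Without each of the other libraries between 2 and 6 of the 32 were called, with the fewest, Dnajc3 and Phgdh, without control replicate 2. All 6 called genes kept the sign of their log2 fold change in each of the 6 fits that leave out a library. Exact two-sided permutation tests of single CPM values cannot go below p = 0.1 with 3 libraries against 3.

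**Figure D4:**
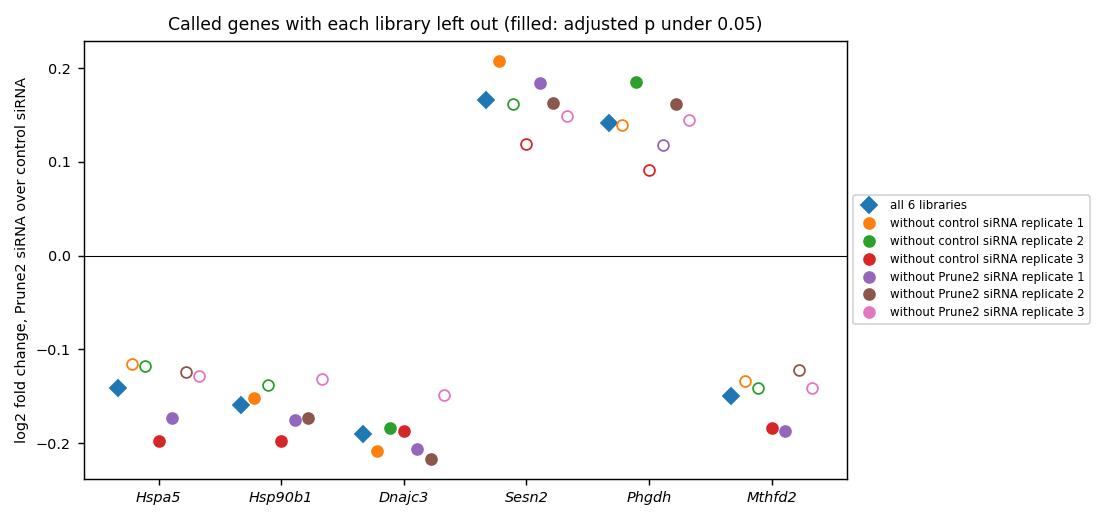
Log2 fold changes (vertical axis) of the 6 called genes with all libraries (diamonds) and with each library left out (circles, 1 colour per library), filled where the adjusted p is under 0.05. The estimates stay on 1 side of 0 for each gene, and every point without Prune2 siRNA replicate 3 is open.

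Per transcript length the chaperones Calr, Hspa5 and Hsp90b1 were the most abundant of the 32 genes. In the deposited FPKM values of control libraries, Calr stood at 389.8 ± 5.05, Hspa5 at 325 ± 16.3, Hsp90b1 at 269.7 ± 11.3 and Atf4 at 175 ± 2.14 FPKM (SD, n = 3). With Prune2 siRNA the same genes stood at 365 ± 9.08, 293 ± 11.2, 243 ± 7.42 and 178 ± 4.07 FPKM, in the same order. The least abundant were Slc7a11, at 3.10 ± 0.159 and 3.25 ± 0.489 FPKM, and Sdf2l1, at 6.63 ± 0.257 and 5.98 ± 0.114 FPKM. Asns (95.8 ± 3.55 FPKM in control libraries), Slc3a2 (84.0 ± 4.19) and Ddit4 (83.8 ± 2.23) followed Atf4 among the Atf4-type genes.

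**Figure D5:**
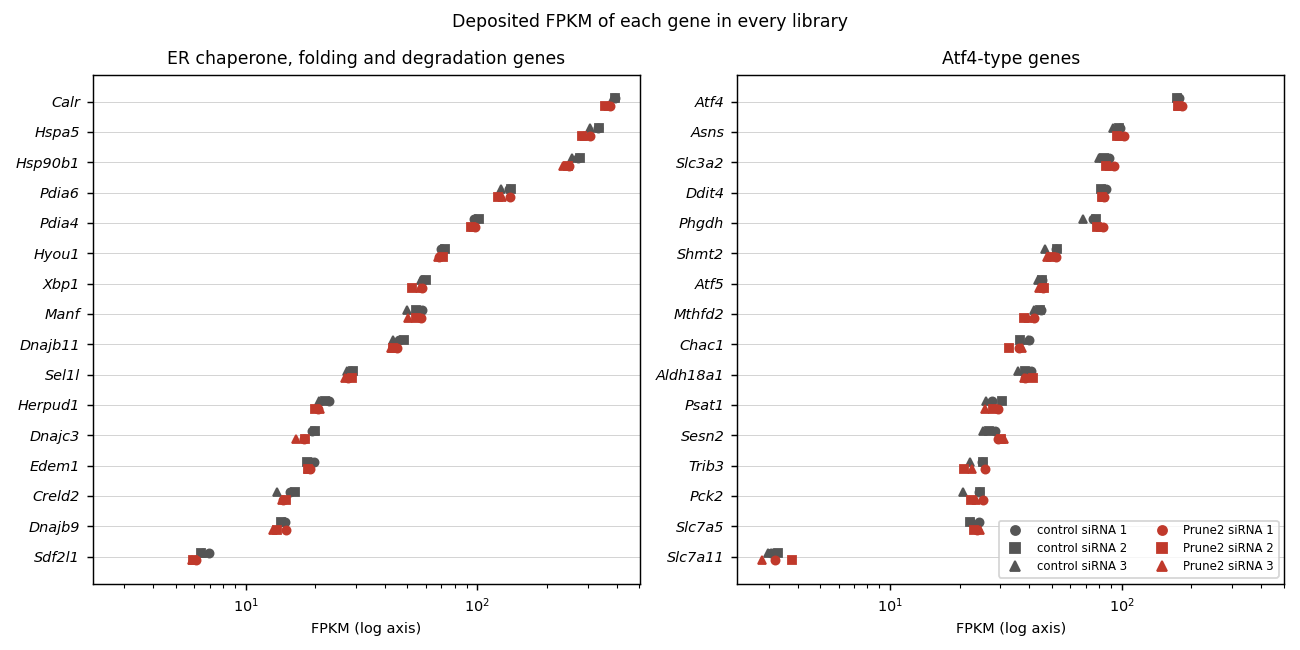
Deposited FPKM of each gene in every library (horizontal log axis), ordered by the control mean within each class, with control libraries in grey and Prune2 siRNA libraries in red. Calr, Hspa5 and Hsp90b1 are highest at left and Atf4 at right, and the spread between genes is far wider than that between groups.

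The FPKM values gave the same signs for nearly all genes, and limma run on them gave fewer calls. In the authors' deposited table, the log2 fold change of mean FPKM had the sign of the count fit for 30 of the 32 genes, Manf and Pck2 being the exceptions, and for all 6 called genes. The deposited adjusted p-values come from a test that is not given, so they are not known to rest on FPKM. By them 5 of the 32 were under 0.05, namely Hspa5, Hsp90b1, Dnajc3, Calr and Sesn2. For Phgdh and Mthfd2 the authors' deposited table gives adjusted p-values of 0.0730 and 0.0837. limma on log2(FPKM + 1) called 0 of the 32 genes (8 at an unadjusted p under 0.05), with the smallest adjusted p, 0.0628, for Hsp90b1, and called 5.47% of 12154 genes overall.

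Of 19 other sensors and regulators, Eif2ak2 rose (5.26% of the list) and Creb3l2 fell (5.26%), where 4.46% of all tested genes were called higher and 5.83% lower. In the same list Ern1, Eif2ak3 and Atf6, which encode the sensors Ire1, Perk and Atf6, were not called, with log2 fold changes of -0.04, -0.06 and -0.06. Atf6b, also not called, went the other way at 0.15 (adjusted p = 0.0594). Every Prune2 siRNA library was above every control library for Atf6b, and below every control library for Eif2ak3 and Atf6. In this list 4 genes were separated downward in this way and 2 upward, where 12.4% and 11.9% of all tested genes were. Of the 19 genes 13 were below 0 and 6 above. Eif2ak2 encodes Pkr, the eIF2α kinase that double-stranded RNA activates and interferon induces. It was at 45.3, 51.3 and 43.4 CPM in control libraries and 64.0, 64.1 and 56.0 CPM with Prune2 siRNA, without overlap (log2 fold change 0.40, SE 0.06, adjusted p = 5.47e-05), a larger difference than any of the 32 genes showed. Creb3l2, a membrane-bound factor that promotes secretory and collagen transport genes, was at 191, 182 and 189.8 CPM against 169, 170.0 and 174 CPM (log2 fold change -0.13, adjusted p = 0.0164). The Creb3l2 call was lost in every limma fit on FPKM and without control replicate 1 (0.0746) or 3 (0.0554) or Prune2 siRNA replicate 1 (0.0583). Its adjusted p ran from 0.0097 to 0.163 over 16 alternatives.

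Of 47 tested genes of 48 listed for ER folding, translocation and degradation beyond the 16, edgeR called 0, where it called 10.3% of all tested genes. Of the 47, 5 had an unadjusted p under 0.05, all downward, and DESeq2 and limma-voom each called 1, P4hb. P4hb, the disulfide isomerase that is also the β subunit of collagen prolyl hydroxylase, had a log2 fold change of -0.11 (adjusted p = 0.0516, range 0.0181 to 0.231 over 16 alternatives). It was at 679, 691 and 653 CPM in control libraries and 649.6, 614 and 611 CPM with Prune2 siRNA, without overlap. The median of the 47 was -0.03, with 31 below 0 and 16 above, where 48.3% of all tested genes were below 0. The groups were separated downward for 9 of the 47 and upward for 2, against 12.4% and 11.9% of all tested genes.

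Of 35 tested genes of 36 listed as further Atf4-type genes, 4 rose and 0 fell (1 downward at an unadjusted p under 0.05, 0 lower by DESeq2 or limma-voom), with a median log2 fold change of 0.04. The 4 are 11.4% of the list, where 4.46% of all tested genes were called higher and 5.83% lower. Of these, Gdf15, a stress-induced cytokine, averaged 140.0 ± 12.4 CPM in control and 168 ± 11.1 CPM in Prune2 siRNA libraries (SD, n = 3), a log2 fold change of 0.26 (adjusted p = 0.000843). Vldlr, a lipoprotein receptor, averaged 39.6 ± 1.49 and 46.5 ± 0.433 CPM, a log2 fold change of 0.23 (adjusted p = 0.00371). Jdp2, a bZIP repressor, had a log2 fold change of 0.22 (adjusted p = 0.0277). Jdp2 missed a call with DESeq2 (0.0822), with limma on FPKM without the FPKM filter, and without control replicate 2 (0.0744) or 3 (0.130) or Prune2 siRNA replicate 1 (0.116) or 3 (0.0910). Its adjusted p ran from 0.0205 to 0.130 over 16 alternatives. Eif4ebp1, a repressor of translation initiation, was the remaining called gene (log2 fold change 0.17, adjusted p = 0.0316). It was not called with DESeq2 (0.0614), in any limma fit on FPKM, or without control replicate 2 (0.127) or 3 (0.230) or Prune2 siRNA replicate 1 (0.110) or 3 (0.102). Its adjusted p ran from 0.00586 to 0.230 over 16 alternatives. Gdf15 was called in 15 and Vldlr in 13 of 16 alternatives, each exception being a fit on FPKM. The 1 gene downward at an unadjusted p under 0.05 was Fgf21, which was not called (log2 fold change -0.53, adjusted p = 0.0750). Its log2 fold change was the lowest of the list, at a low level. Fgf21 stood at 3.22, 4.05 and 3.69 CPM in control and 2.74, 2.49 and 2.35 CPM in Prune2 siRNA libraries, without overlap.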

How the data were processed

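RNA-seq of 3 control siRNA and 3 Prune2 siRNA libraries was used, grouped by the sample titles. Per the file headers, the authors deposited 1 table with raw counts and FPKM for each library, group mean FPKM, and log2 fold changes with p-values and FDR. The genome build is GRCm38 (mm10), per the submitters' processing notes. Not given in the sources used here are the aligner, the counter and the authors' test, so how reads shared between gene copies were treated is unknown.

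The count test was that of edgeR 4.0.16, run in R 4.3.3 (TMM scaling, filterByExpr, glmQLFit and glmQLFTest, Benjamini-Hochberg over 13248 genes, threshold 0.05). The standard error is the size of the log2 fold change over the square root of F, and 95% intervals use the test's total degrees of freedom. CPM are counts over TMM-scaled library sizes. Alternatives were DESeq2 1.42.0, DESeq2 size factors, upper-quartile scaling, limma-voom (limma 3.58.1), other count filters, limma on log2(FPKM + 1) and log2(FPKM + 0.1) for genes with a mean FPKM of at least 0.5 or without that filter, a replicate block and leaving out each library. The fits were checked on simulated counts. Library depths of 20075265 to 23234797 counts limit precision for genes of low level such as Sdf2l1. Within groups, libraries differed by more than sampling noise (chi-square 2.57 to 3.92 per degree of freedom), so none was treated as a repeat of another.

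The 32 genes, the gene lists, the marker lists and the tests were chosen with earlier results of these data known. Among the 32 genes, values in every library are given for called genes, genes whose groups do not overlap, and Hspa5, Xbp1, Atf4 and Asns. Outside this rule they are also given for Herpud1 and Chac1, and for the Prune2 siRNA libraries of Slc7a11. Of the other pathway lists, up to 3 called genes per direction are named. P4hb, Eif4ebp1, Psph, Ddit3, Fgf21, Atf6b and the sensors Ern1, Eif2ak3 and Atf6 were added after their values were seen. List genes were matched by identifier through GENCODE M21 symbols. A list of 5 plasma cell markers held 1 tested gene, Sdc1, called lower, with Jchain and Mzb1 under 0.05 CPM in each group's mean and Tnfrsf17 at 0. Promoters are from RefSeq (GRCm38.p6).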

Additional observations from a re-analysis of the deposited data

How the results depend on the processing

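Between 0 and 7 of the 32 genes were called over 16 alternatives. limma on FPKM, with either pseudocount or without the FPKM filter, called 0 of the 32, hence 0 ER and 0 Atf4-type genes, with 8, 8 and 7 of the 32 at an unadjusted p under 0.05, and 665, 655 and 593 genes over all, against 1364. In the same 3 fits 1, 1 and 0 of the other sensors and regulators were called. The cause was not tested. DESeq2 called 1 Atf4-type gene of the 32 in place of 3 and 2 of the further Atf4-type genes in place of 4, and limma on log2(FPKM + 1) without the FPKM filter called 0 of the latter. Of the other ER genes, 1 (P4hb) was called in place of 0 with DESeq2 size factors, upper-quartile scaling, DESeq2, limma-voom, no count filter, the 1 CPM filter and the replicate block. Leaving out 1 library, which leaves fewer samples, gave 997 to 1249 genes over all, 0 to 6 of the 32, 0 to 4 ER genes, 0 to 2 Atf4-type genes, 1 to 2 other sensors and regulators, 0 to 2 other ER genes and 2 to 4 further Atf4-type genes. The median log2 fold change then ran from -0.112 to -0.0646 for ER genes and from -0.02 to 0.02 for Atf4-type genes. The ER median moved by more than the spread between libraries without control replicate 3 (-0.11) and without Prune2 siRNA replicate 1 (-0.10). ER genes with a log2 fold change below 0 numbered 15 or 16 of 16 in every fit.

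A pairing of the libraries by replicate number was neither shown nor excluded. Correlations of deviations from the group means between libraries of the same number were 0.05, -0.01 and 0.03, and 3 of 6 libraries correlated best with their own number. With the replicate block 1490 genes were called over all and 7 of the 32, Calr being added.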
